A study of Rattus norvegicus with 12 samples.

Results

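The genes described here are the classical axon guidance ligands and receptors: semaphorins with their neuropilin and plexin receptors, slits with robos, netrins with DCC and UNC5 receptors, and ephrins with Eph receptors. They were chosen by gene symbol alone, with no measured value in the rule. The rule found 69 of the 20152 genes listed in any library, 35 of them ligands and 34 receptors. Dorsal root ganglia, which hold the cell bodies of sensory neurons beside the spinal cord, were taken from rats, and their RNA was sequenced in 12 libraries, 4 per group. The oxaliplatin group received oxaliplatin at 2.4 mg/kg, a platinum drug that binds DNA, dissolved in a glucose solution. The paclitaxel group received paclitaxel, a microtubule-stabilising drug, at 2.0 mg/kg, in DMSO with saline as diluent. Both drugs were injected intraperitoneally to cause painful neuropathy. The third group received vehicle, and the labels do not say which solvent that was, so an effect of a drug and of a solvent cannot be told apart. The labels used here name no strain, sex, age, number of injections or time of tissue collection, and do not say whether a library was 1 animal or a pool, so the spread behind each p-value is that between libraries and may be technical.

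Axon guidance cues steer growing axons by attraction or repulsion at the growth cone, the motile tip of the axon. Secreted class 3 semaphorins act through a neuropilin that binds them and a plexin that signals, while membrane semaphorins mostly bind plexins directly; slits act through robos, netrins attract through DCC and repel through UNC5 receptors, and ephrins and Eph receptors signal between touching cells. In the embryo these systems pattern the paths of sensory axons, and in the adult they are also known from blood vessels, glia and injured nerve.

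Libraries held between 17008728 and 17615736 estimated counts, and 15809 genes passed the expression filter. Paclitaxel library 4 differed most from the others of its group, with a chi-square per gene of 22.3 to 44.9 against 8.07 to 16.6 among the other paclitaxel libraries. Pairs of oxaliplatin libraries gave 18.5 to 32.7 and pairs of vehicle libraries 11.1 to 22.3, so part of that range also occurred in the other groups. The neuronal markers listed for this tissue were all found in the files, 16 of 16, as were those of satellite glia (10 of 10) and of Schwann cells and myelin (12 of 12), and none was at 0 in any library. Summed levels of several marker lists differed between groups. The neuronal markers summed to 14958 to 19680.0 CPM in oxaliplatin, 21307 to 31027 CPM in paclitaxel and 21477 to 24635 CPM in vehicle libraries. Fibroblast and matrix markers summed to 3630.0 to 4546 CPM in oxaliplatin, 2190.3 to 2779 CPM in paclitaxel and 2782 to 4046 CPM in vehicle libraries, endothelial markers to 298 to 359 CPM in oxaliplatin, 219 to 252 CPM in paclitaxel and 223 to 324 CPM in vehicle libraries, and macrophage markers to 292 to 353 CPM in oxaliplatin, 134 to 233 CPM in paclitaxel and 258 to 467 CPM in vehicle libraries. Pericyte and smooth muscle markers summed to 261 to 308 CPM in oxaliplatin, 178 to 239.8 CPM in paclitaxel and 170.4 to 286 CPM in vehicle libraries. Erythroid markers summed to 3880.4 to 13053 CPM in oxaliplatin, 990.4 to 2475 CPM in paclitaxel and 1994 to 3596 CPM in vehicle libraries. In bulk tissue, fewer cells of a type and less RNA per cell cannot be told apart.

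**Figure D1:**
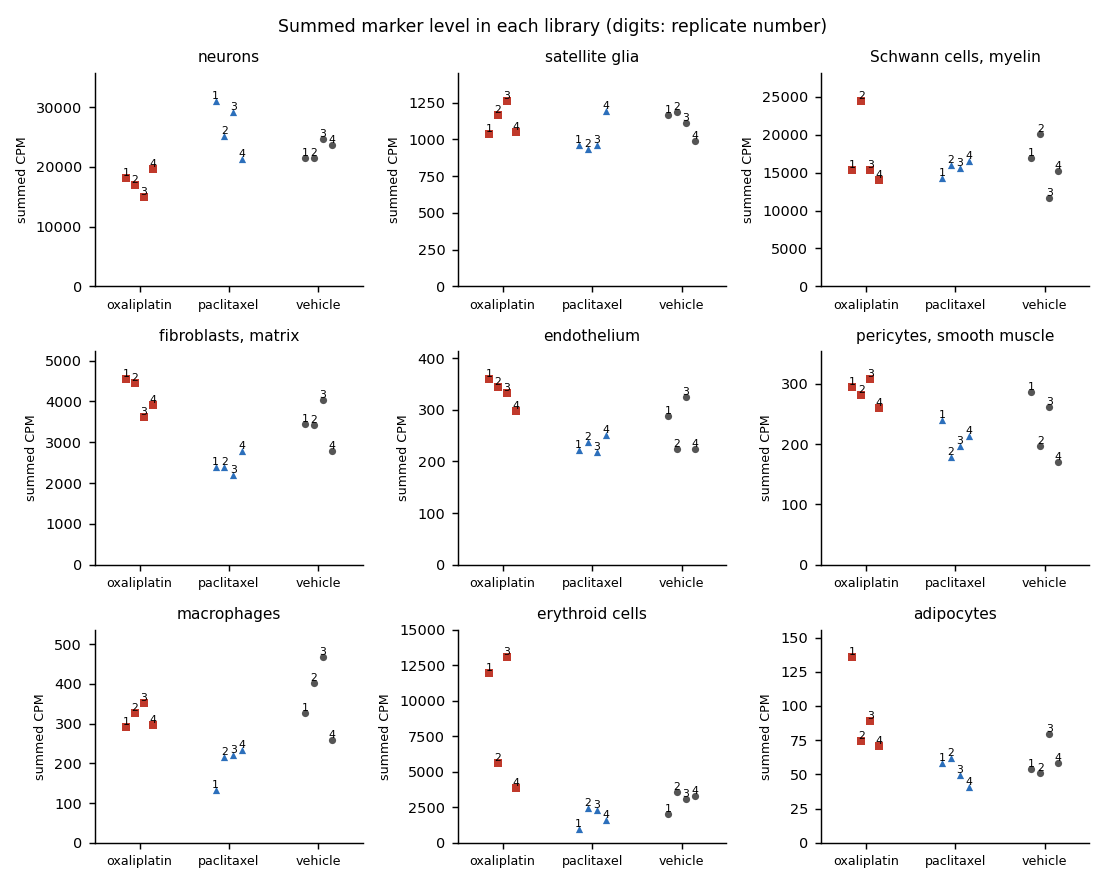
Summed CPM (counts scaled to the TMM-scaled library total, linear axis from 0) of 9 marker lists in each of the 12 libraries, with oxaliplatin as squares, paclitaxel as triangles and vehicle as circles, and the replicate number above each point. The oxaliplatin libraries lie below all paclitaxel libraries for neuronal markers and above them for fibroblast, endothelial, macrophage and erythroid markers.

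The guidance genes formed a small part of the ganglion transcriptome, between 0.289% and 0.342% of the estimated counts of a library, and all 69 were listed in all 12 libraries. FPKM, a level per length of transcript and per library total, allows levels of different genes to be compared. In vehicle libraries 23 genes averaged at least 10 FPKM, 34 lay between 1 and 10 FPKM and 12 were under 1 FPKM. Sema3b, a secreted semaphorin, had the highest level, 129.7 ± 16.8 FPKM in vehicle libraries (SD, n = 4), which was 71.6% of the summed FPKM of the class 3 semaphorins. It was followed by Sema7a, a GPI-anchored semaphorin (41.0 ± 3.51 FPKM), Sema3g, a secreted semaphorin that binds neuropilin 2 (26.6 ± 1.95 FPKM), Plxnd1, the plexin that binds Sema3e (22.8 ± 2.09 FPKM), and Sema4c, a ligand of Plxnb2 (20.8 ± 3.64 FPKM). The means of Plxnd1, Sema4f (20.7 ± 1.23 FPKM), Robo2 (19.4 ± 1.49 FPKM), Nrp2 (19.3 ± 1.82 FPKM) and Ephb6 (17.2 ± 2.20 FPKM) differed from that of Sema4c by less than the SD of Sema4c, so its place among them is not resolved. The estimated counts of 16 guidance genes were not whole in more than 6 libraries, so their reads may be shared with another gene: Epha1, Epha7, Ephb2, Ephb3, Nrp2, Plxna3, Plxna4, Robo4, Sema4c, Sema4f, Sema5a, Sema6b, Sema6d, Unc5b, Unc5c and Unc5d. At the other end Sema3a, the textbook repellent of sensory axons in the embryo, was at 0.152 ± 0.0479 FPKM and Dcc, the attractive netrin receptor, at 0.282 ± 0.0435 FPKM in vehicle libraries.

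Within the other families a few genes also led. Robo2 was at 19.4 ± 1.49 FPKM in vehicle libraries, 82.7% of the summed FPKM of the slit receptors, and Robo1 was at 3.07 ± 0.323 FPKM. Of the slits, Slit1 was at 15.7 ± 1.41 FPKM and Slit2 at 5.29 ± 0.684 FPKM. The netrins were led by Ntn4, a basement membrane netrin (5.997 ± 1.63 FPKM), and Ntn3 (4.50 ± 0.655 FPKM). Ntn1 was at 3.78 ± 1.92 FPKM, with vehicle libraries from 1.6 to 6.26 FPKM, so its place below them is not resolved. The netrin receptors were led by Unc5b (3.69 ± 0.158 FPKM) and Unc5a (1.96 ± 0.394 FPKM). Nrp2, the neuropilin of Sema3f and Sema3g, was at 19.3 ± 1.82 FPKM. Efnb1 (15.7 ± 2.02 FPKM) and Efna1 (14.8 ± 1.73 FPKM) led the ephrins. Ephb6, an Eph receptor whose kinase domain is inactive, was at 17.2 ± 2.20 FPKM and Ephb1 at 5.78 ± 0.343 FPKM. Epha1 missed the expression filter and was not tested, with 0.135 ± 0.0332 FPKM in oxaliplatin, 0.138 ± 0.0206 FPKM in paclitaxel and 0.122 ± 0.00957 FPKM in vehicle libraries.

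**Figure D2:**
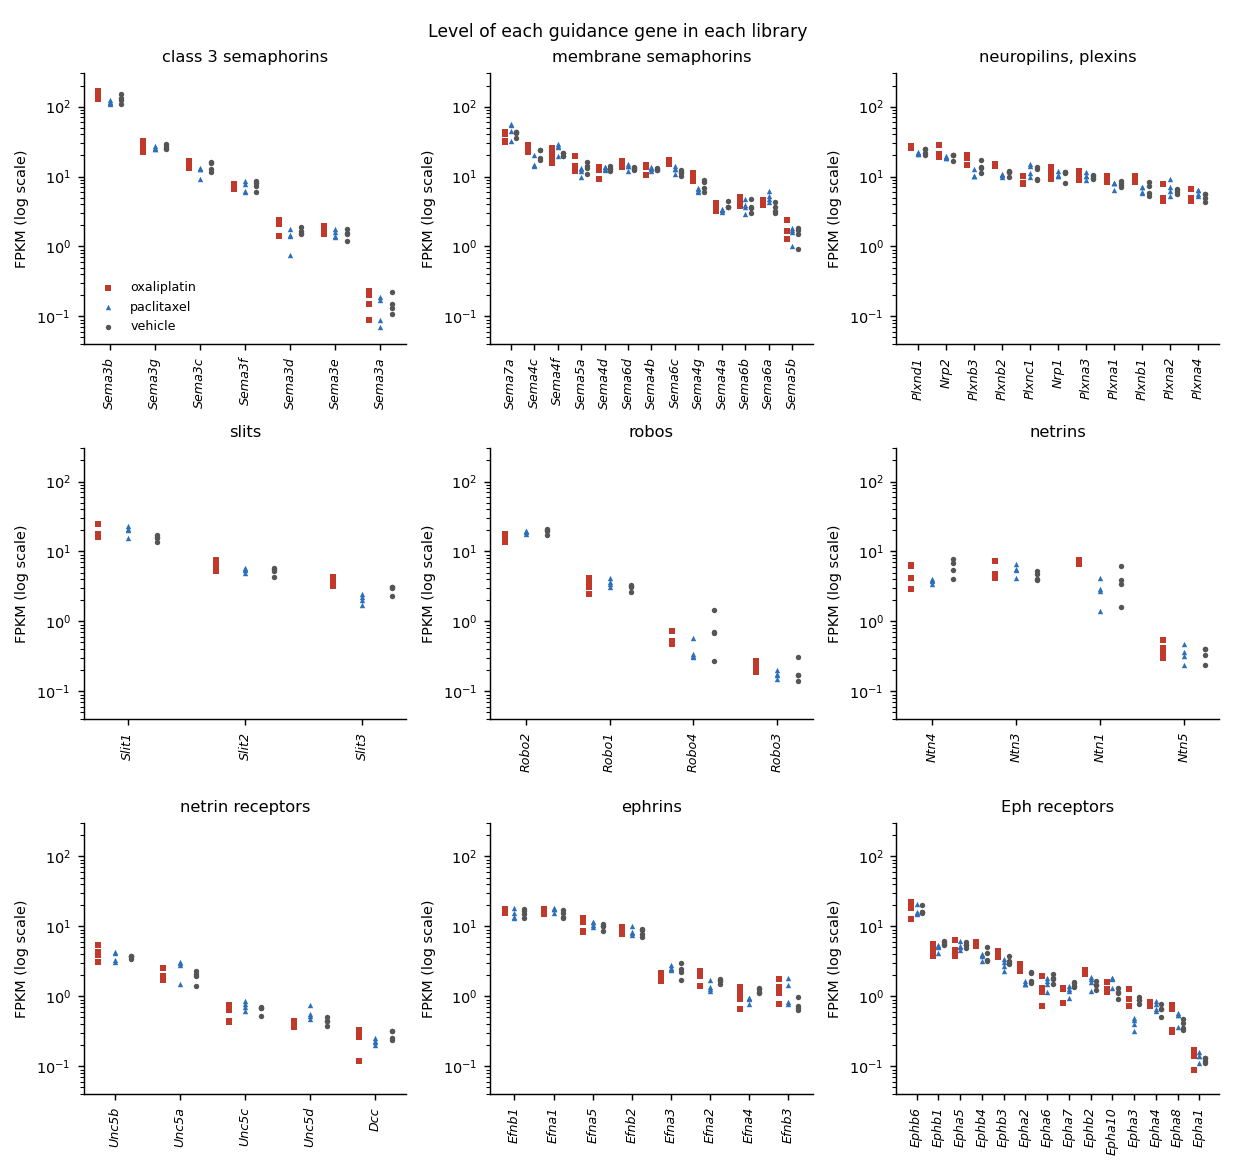
FPKM of each of the 69 guidance genes (log axis) in each library, by family and in falling order of the vehicle mean, with oxaliplatin as squares, paclitaxel as triangles and vehicle as circles. Sema3b lies highest in all groups, and Sema3a and Epha1 lie near the foot of the axis.

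Summed over all 69 genes, the guidance genes reached 699 ± 39.5 FPKM in oxaliplatin, 633 ± 14.0 FPKM in paclitaxel and 642 ± 17.1 FPKM in vehicle libraries (SD, n = 4 each), and the sums by family were not tested. FPKM is not TMM-scaled, and it ran higher in oxaliplatin for genes in general. The median log2 fold change of all genes between the drugs was 0.064 on log2(FPKM + 1), against 0.004 in edgeR. The sums below include that shift, and its share in them was not tested. The class 3 semaphorins, mostly Sema3b, summed to 199 ± 21.1 FPKM in oxaliplatin, 165 ± 6.86 FPKM in paclitaxel and 181 ± 12.8 FPKM in vehicle libraries. The netrins summed to 17.8 ± 2.31 FPKM in oxaliplatin, 12.4 ± 1.13 FPKM in paclitaxel and 14.6 ± 2.02 FPKM in vehicle libraries. Class 3 semaphorins and netrins had their highest mean in the oxaliplatin libraries and their lowest in the paclitaxel libraries. The sum of all 69 genes, the neuropilins and plexins and the Eph receptors had the same order. Robos, mostly Robo2, had their lowest mean in the oxaliplatin libraries, with 19.9 ± 2.72 FPKM in oxaliplatin, 23.3 ± 1.06 FPKM in paclitaxel and 23.5 ± 2.13 FPKM in vehicle libraries. Neuropilins and plexins summed to 141 ± 11.6 FPKM in oxaliplatin, 123 ± 1.64 FPKM in paclitaxel and 125 ± 10.2 FPKM in vehicle libraries, and the slits to 29.0 ± 4.50 FPKM in oxaliplatin, 27.7 ± 3.55 FPKM in paclitaxel and 23.9 ± 1.49 FPKM in vehicle libraries. For the membrane semaphorins (178 ± 10.5 FPKM in oxaliplatin, 173 ± 12.2 FPKM in paclitaxel and 167 ± 5.12 FPKM in vehicle libraries), the ephrins (58.4 ± 2.96 FPKM in oxaliplatin, 57.8 ± 2.56 FPKM in paclitaxel and 54.7 ± 2.79 FPKM in vehicle libraries) and the netrin receptors (7.42 ± 1.55 FPKM in oxaliplatin, 7.86 ± 1.37 FPKM in paclitaxel and 7.03 ± 0.656 FPKM in vehicle libraries), the group means differed by little more than their SDs. Eph receptors summed to 48.3 ± 5.50 FPKM in oxaliplatin, 43.2 ± 2.57 FPKM in paclitaxel and 45.3 ± 2.26 FPKM in vehicle libraries.

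Between the drugs, 14 of 68 tested guidance genes were called in edgeR's quasi-likelihood test at an adjusted p under 0.05, which is 20.6% of them, beside 11.3% of all 15809 genes tested. Oxaliplatin was higher for 10 of them, Epha2, Epha3, Ephb4, Ntn1, Plxnb2, Plxnb3, Sema4c, Sema4g, Sema6c and Slit3, where 6.6% of all genes were called higher. It was lower for 4, Epha10, Plxnc1, Robo2 and Unc5d, where 4.71% of all genes were called lower. With limma on log2(FPKM + 1), 13 guidance genes were called, 13 higher and 0 lower (19.1%, beside 11.3% of all genes in that fit). The calls over all genes in that fit also leaned higher, 1507 higher and 277 lower. The libraries of the drugs did not overlap for 19 of 68 genes (27.9%), against 15.3% of all genes, with 14 higher (9.17% of all genes) and 5 lower (6.1% of all genes). At an unadjusted p under 0.05 there were 28 of 68 (41.2%), against 29.4% of all genes, and 38 of 68 log2 fold changes were above 0 (55.9%, against 50.6%), or 45 with limma on log2(FPKM + 1). In that limma fit the median log2 fold change was 0.066 for the guidance genes and 0.064 for all genes. Without paclitaxel 4 there were 19 calls, 11 higher and 8 lower (27.9%, beside 21.7% of all genes in that fit), and without oxaliplatin 4 there were 18, 8 higher and 10 lower (26.5%, beside 14.1%). Without both there were 23, 8 higher and 15 lower (33.8%, beside 27.5%). Without any one of the other 6 drug libraries there were 5 to 8 (7.35% to 11.8%), beside 3.59% to 7.73% of all genes. In the edgeR fit of all libraries the median log2 fold change of the guidance genes was 0.06, against 0.00 for all genes. The plot of log2 fold changes shows all 68 tested genes in the 3 comparisons, and the plot of called genes shows each library of the 14.

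**Figure D3:**
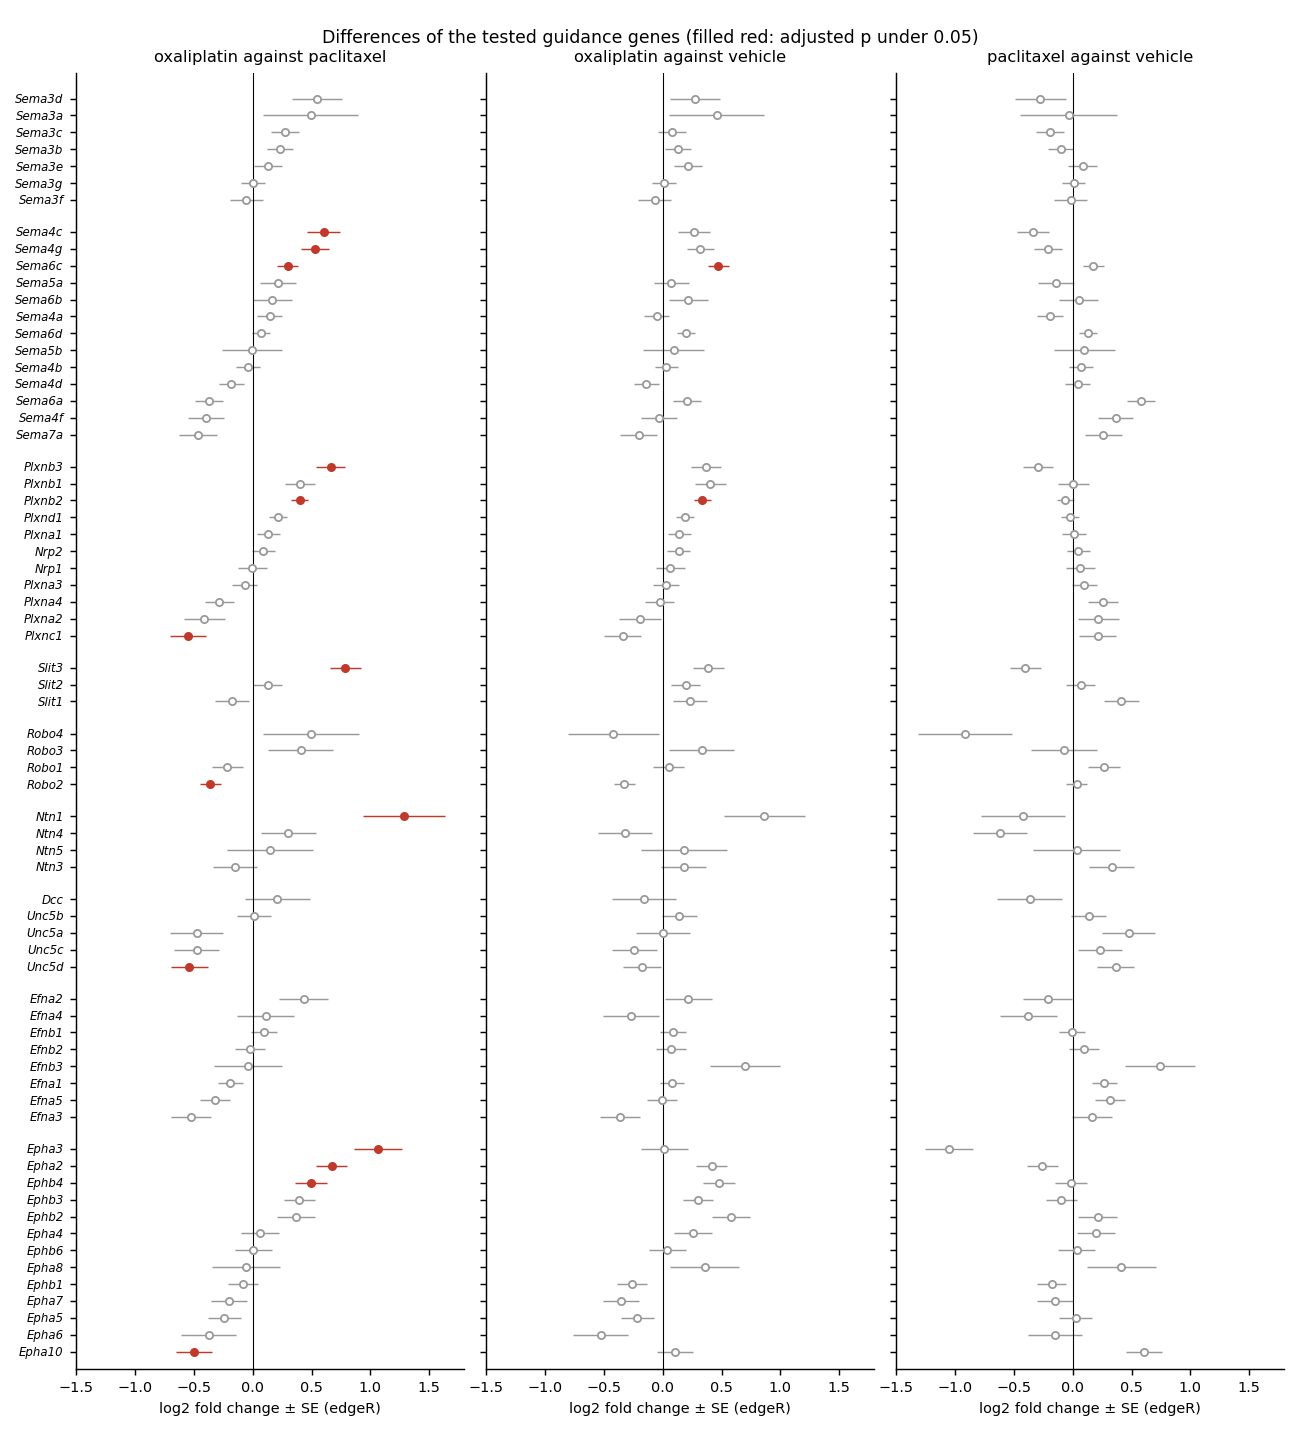
edgeR log2 fold change ± SE (horizontal axis, positive where the first-named group is higher) of the 68 tested guidance genes, in 3 panels, oxaliplatin against paclitaxel, oxaliplatin against vehicle and paclitaxel against vehicle, grouped by family with filled red points at an adjusted p under 0.05. There are 14 filled points in the first panel, 2 in the second and 0 in the third.

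**Figure D4:**
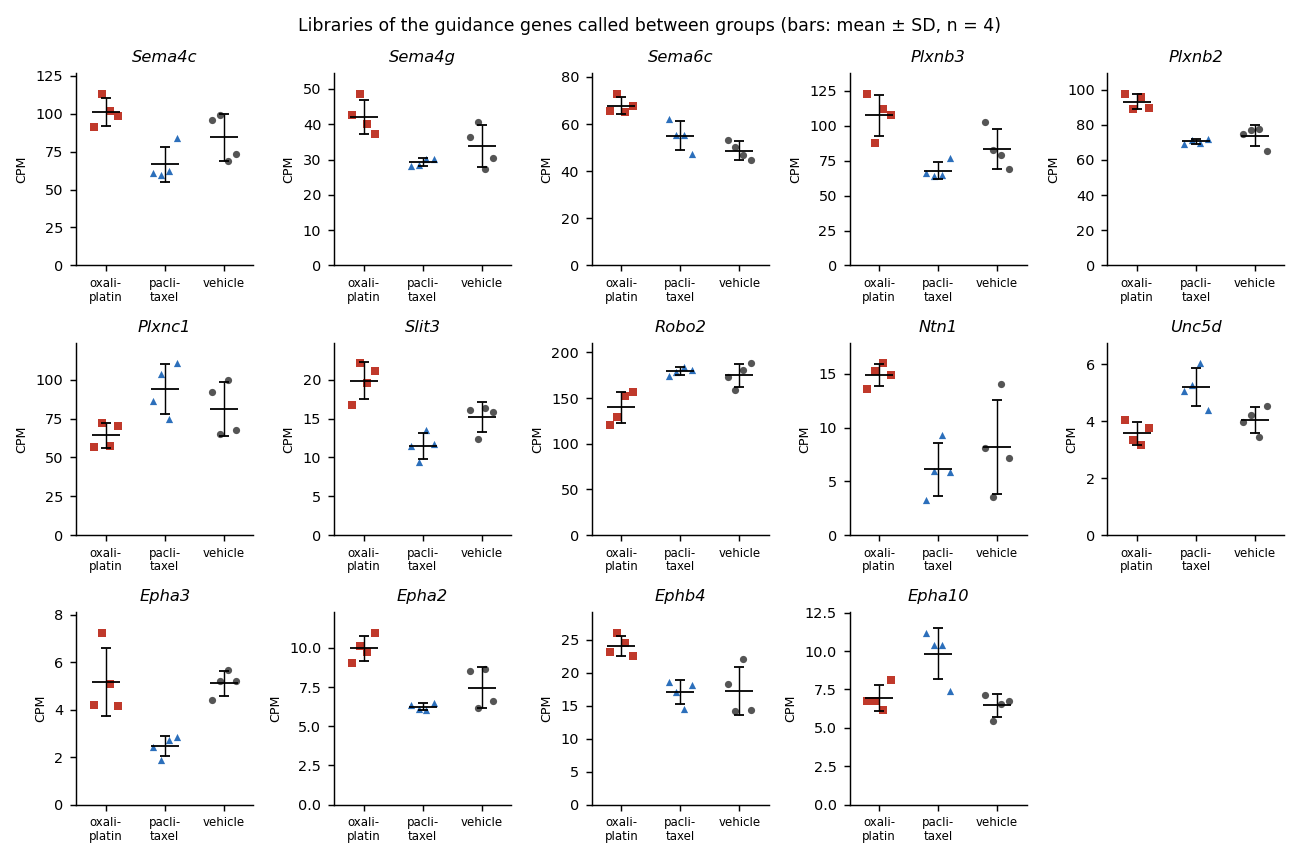
CPM (linear axis from 0) of the 14 called guidance genes in each library, with oxaliplatin as red squares, paclitaxel as blue triangles and vehicle as black circles, and the mean ± SD of 4 libraries as bars. The oxaliplatin squares lie above all paclitaxel triangles in 10 panels.

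Among the secreted ligands, 1 of 3 slits, 1 of 4 netrins and 0 of 7 class 3 semaphorins were called between the drugs, beside 11.3% of all genes. A single call in a family this small says little about the family. Slit3, a secreted repellent for robo-bearing axons, and Ntn1, the founding netrin, were both higher after oxaliplatin than after paclitaxel. Slit3 (gene ID 83467) had 16.7, 22.1, 19.6 and 21.1 CPM in the oxaliplatin libraries, 11.4, 9.39, 13.5 and 11.7 CPM in the paclitaxel libraries and 16.1, 12.4, 16.4 and 15.9 CPM in the vehicle libraries. All 4 oxaliplatin libraries lay above all paclitaxel libraries. The log2 fold change of oxaliplatin over paclitaxel was 0.79 ± 0.13 (SE), adjusted p = 0.00537. Ntn1 (gene ID 114523) had 13.6, 15.3, 15.98 and 14.9 CPM in the oxaliplatin libraries, 3.27, 5.98, 9.35 and 5.87 CPM in the paclitaxel libraries and 8.09, 3.51, 14.0 and 7.17 CPM in the vehicle libraries. All oxaliplatin libraries lay above all paclitaxel libraries, but the vehicle libraries spread widely and overlap both. The log2 fold change was 1.29 ± 0.35, adjusted p = 0.0361, and it missed the threshold without any one of oxaliplatin 1, 2, 3 or 4 or paclitaxel 1, 2 or 4 (adjusted p 0.0524 to 0.0950). Sema3b, the most abundant guidance gene, had 344 to 453 CPM in oxaliplatin, 322 to 353 CPM in paclitaxel and 307 to 425 CPM in vehicle libraries, a log2 fold change of 0.23 ± 0.11, adjusted p = 0.172. Sema3g had a log2 fold change of 0.00 ± 0.10, adjusted p = 0.986, and Slit1 had -0.18 ± 0.15, adjusted p = 0.437.

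Of 13 membrane semaphorins 3 were called between the drugs (23.1%, beside 11.3% of all genes). Sema4c and Sema4g, ligands of B plexins, and Sema6c, a transmembrane semaphorin of class 6, were higher after oxaliplatin than after paclitaxel. Sema4c (gene ID 301346) had 91.4, 113, 102 and 98.3 CPM in the oxaliplatin libraries, 60.8, 59.8, 61.9 and 83.9 CPM in the paclitaxel libraries and 96.0, 98.7, 69.0 and 73.3 CPM in the vehicle libraries, a log2 fold change of 0.60 ± 0.14, adjusted p = 0.0171. All oxaliplatin libraries lay above all paclitaxel libraries, of which paclitaxel 4 was the highest. Its reads may be shared with another gene, and without any one of paclitaxel 1, 2 or 3 the adjusted p was 0.0504 to 0.0578. Sema4g (gene ID 361764) had 37.3 to 48.6 CPM in oxaliplatin, 28.1 to 30.2 CPM in paclitaxel and 27.3 to 40.7 CPM in vehicle libraries, with a log2 fold change of 0.53 ± 0.12, adjusted p = 0.0170, and 0.0509 without paclitaxel 2. Sema6c (gene ID 29744) had 65.5, 72.8, 65.1 and 67.6 CPM in the oxaliplatin libraries, 62.3, 55.3, 55.4 and 47.4 CPM in the paclitaxel libraries and 53.4, 50.3, 46.7 and 44.7 CPM in the vehicle libraries. The log2 fold change between the drugs was 0.30 ± 0.09, adjusted p = 0.0465, and it was lost without any one of oxaliplatin 1, 2, 3 or 4 or paclitaxel 2, 3 or 4 (adjusted p 0.0606 to 0.122). Sema7a, the most abundant membrane semaphorin, had 89.7 to 122 CPM in oxaliplatin, 97.1 to 180.4 CPM in paclitaxel and 109 to 126 CPM in vehicle libraries. Its log2 fold change was -0.47 ± 0.16, adjusted p = 0.0726, or 0.00553 without paclitaxel 4.

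Of 11 neuropilins and plexins 3 were called between the drugs (27.3%, beside 11.3% of all genes). The B plexins Plxnb2, the receptor of class 4 semaphorins such as Sema4c, and Plxnb3, the receptor of Sema5a, were higher after oxaliplatin than after paclitaxel. Plxnc1, the receptor of Sema7a, was lower. Plxnb2 (gene ID 315217) had 97.6, 89.1, 95.7 and 89.5 CPM in the oxaliplatin libraries, 69.1, 71.2, 69.9 and 71.9 CPM in the paclitaxel libraries and 75.0, 77.2, 77.6 and 65.0 CPM in the vehicle libraries. The lowest oxaliplatin library lay above the highest paclitaxel and vehicle libraries. The log2 fold change between the drugs was 0.40 ± 0.07, adjusted p = 0.00689. Plxnb3 (gene ID 363517) had 87.6 to 123 CPM in oxaliplatin, 64.1 to 77.0 CPM in paclitaxel and 68.9 to 102 CPM in vehicle libraries, with a log2 fold change between the drugs of 0.66 ± 0.12, adjusted p = 0.00812. Plxnc1 (gene ID 362873) had 57.0 to 72.3 CPM in oxaliplatin, 74.9 to 111 CPM in paclitaxel and 65.1 to 100.02 CPM in vehicle libraries, with a log2 fold change of -0.55 ± 0.16, adjusted p = 0.0387. The Plxnc1 call was lost without any one of oxaliplatin 1, 2 or 3 or paclitaxel 1, 2 or 4 (adjusted p 0.0546 to 0.108). It was also lost with limma on log2(FPKM + 1). Plxnb1, the receptor of Sema4d, had a log2 fold change of 0.40 ± 0.13, adjusted p = 0.0616, or 0.0459 without paclitaxel 4. Plxnd1 had 0.22 ± 0.08 (adjusted p = 0.0772) and Nrp2 0.09 ± 0.10 (adjusted p = 0.587). The oxaliplatin libraries of Plxnb1 and Plxnd1 lay above their paclitaxel libraries.

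Of 4 robos 1 was called between the drugs and of 5 netrin receptors 1, beside 11.3% of all genes. The slit receptor Robo2 and the netrin receptor Unc5d were lower after oxaliplatin than after paclitaxel, though neither was called with limma on log2(FPKM + 1). Robo2 (gene ID 84409) had 121, 129, 152 and 156 CPM in the oxaliplatin libraries, 174, 178, 184 and 181 CPM in the paclitaxel libraries and 173, 158, 181 and 188 CPM in the vehicle libraries. Each oxaliplatin library lay below all paclitaxel and vehicle libraries. The log2 fold change between the drugs was -0.36 ± 0.09, adjusted p = 0.0245, and it missed the threshold without any one of oxaliplatin 1 or 2 or paclitaxel 2 or 3 (adjusted p 0.0523 to 0.0716). Unc5d (gene ID 306534) had 3.16 to 4.04 CPM in oxaliplatin, 4.41 to 6.04 CPM in paclitaxel and 3.43 to 4.53 CPM in vehicle libraries, a log2 fold change of -0.54 ± 0.16, adjusted p = 0.0406, and the call was lost without any one of oxaliplatin 2 or 3 or paclitaxel 1, 2 or 3 (adjusted p 0.0758 to 0.129). Its reads may be shared with another gene.

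Of 13 tested Eph receptors 4 were called between the drugs (30.8%, beside 11.3% of all genes), 3 higher and 1 lower, and 0 of 8 ephrins were. Epha3 (gene ID 29210), a receptor for ephrin-A5, had 4.22, 7.24, 5.08 and 4.16 CPM in the oxaliplatin libraries, 2.42, 1.88, 2.72 and 2.85 CPM in the paclitaxel libraries and 4.39, 5.20, 5.66 and 5.22 CPM in the vehicle libraries. The paclitaxel libraries lay below both other groups, while oxaliplatin and vehicle libraries overlapped. The log2 fold change between the drugs was 1.07 ± 0.21, adjusted p = 0.00920. Epha2 (gene ID 366492), the receptor of ephrin-A1, had 9.07 to 10.96 CPM in oxaliplatin, 6.04 to 6.51 CPM in paclitaxel and 6.14 to 8.64 CPM in vehicle libraries, with a log2 fold change of 0.67 ± 0.13, adjusted p = 0.00975. Ephb4 (gene ID 686310), the receptor of ephrin-B2 known from veins, had 22.5 to 26.0 CPM in oxaliplatin, 14.5 to 18.6 CPM in paclitaxel and 14.2 to 22.0 CPM in vehicle libraries, with a log2 fold change of 0.49 ± 0.14, adjusted p = 0.0342, and 0.0538 to 0.108 without any one of oxaliplatin 1, 2 or 3 or paclitaxel 1, 2 or 3. Epha10 (gene ID 298528), a receptor whose kinase domain is inactive, was the one called lower, though not with limma on log2(FPKM + 1). It had 6.16 to 8.15 CPM in oxaliplatin, 7.38 to 11.2 CPM in paclitaxel and 5.44 to 7.11 CPM in vehicle libraries, with a log2 fold change of -0.50 ± 0.15, adjusted p = 0.0470, and 0.0841 to 0.127 without any one of oxaliplatin 1, 2 or 3 or paclitaxel 1, 2 or 3. Efna3, an ephrin-A ligand, was not called (log2 fold change -0.53 ± 0.17, adjusted p = 0.0587, or 0.0397 without paclitaxel 4), but its oxaliplatin libraries, 3.85 to 4.91 CPM, lay below its paclitaxel libraries, 5.63 to 6.87 CPM.

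Several cell type marker lists also differed between the drugs, where 6.6% of all genes were called higher and 4.71% lower. Between the drugs, oxaliplatin was called lower for 7 of 16 neuronal markers and higher for 8 of 12 fibroblast and matrix, 6 of 12 endothelial, 6 of 14 macrophage, 3 of 12 pericyte and smooth muscle and 10 of 13 erythroid markers, with 1 erythroid marker lower. It was also called higher for 6 of 8 tested B and plasma cell markers (median log2 fold change 2.51), 6 of 9 adipocyte markers (median 1.84) and 2 of 10 satellite glia markers. Schwann cell and myelin markers were above paclitaxel for 12 of 12 and neutrophil markers for 9 of 9, 0 of them called. Of 7 tested bone and cartilage markers (median 0.004) and 6 tested spinal cord markers (median 0.009) 0 were called. The part of these lists in the differences of the guidance genes was not tested.

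Between the drugs Plxnb2 and Slit3 were called under all 17 alternatives, Robo2 under 10 and Sema6c under 5. Promoters are shown for these 4 of the called genes: Plxnb2, Slit3 and Sema6c, higher after oxaliplatin than after paclitaxel, and Robo2, lower. They come from the RefSeq promoter table of assembly GRCr8, 250 bases before to 50 bases after the start, which holds 53 of the 69 guidance genes, and are written 5′ to 3′ on the gene's strand with GC boxes (GGGCGG, either strand) in capitals.
Plxnb2, chr7:122137899-122138198, minus strand: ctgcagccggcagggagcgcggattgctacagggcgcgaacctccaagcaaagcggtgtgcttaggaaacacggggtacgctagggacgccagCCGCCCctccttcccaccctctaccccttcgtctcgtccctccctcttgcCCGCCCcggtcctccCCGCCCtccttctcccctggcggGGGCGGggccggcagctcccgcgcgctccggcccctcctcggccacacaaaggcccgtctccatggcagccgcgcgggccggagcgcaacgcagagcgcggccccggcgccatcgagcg
Sema6c, chr2:185426236-185426535, plus strand: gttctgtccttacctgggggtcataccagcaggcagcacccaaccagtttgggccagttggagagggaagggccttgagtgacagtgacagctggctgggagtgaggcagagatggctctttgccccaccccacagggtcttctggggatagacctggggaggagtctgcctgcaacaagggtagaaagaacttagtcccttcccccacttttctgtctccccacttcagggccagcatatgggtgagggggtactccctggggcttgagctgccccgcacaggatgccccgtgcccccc
Slit3, chr10:20075679-20075978, plus strand: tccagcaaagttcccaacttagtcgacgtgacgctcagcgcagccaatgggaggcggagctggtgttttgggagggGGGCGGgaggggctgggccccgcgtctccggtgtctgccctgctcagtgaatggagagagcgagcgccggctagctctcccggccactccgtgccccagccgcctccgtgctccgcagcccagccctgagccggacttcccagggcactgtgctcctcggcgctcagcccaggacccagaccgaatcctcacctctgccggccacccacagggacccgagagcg
Robo2, chr11:26526363-26526662, minus strand: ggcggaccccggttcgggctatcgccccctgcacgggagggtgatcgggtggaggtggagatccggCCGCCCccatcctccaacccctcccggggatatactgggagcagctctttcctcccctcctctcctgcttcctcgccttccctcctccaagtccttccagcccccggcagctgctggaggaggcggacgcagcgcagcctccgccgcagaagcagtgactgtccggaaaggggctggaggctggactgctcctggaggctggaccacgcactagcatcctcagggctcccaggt
The Plxnb2 promoter held 4 GC boxes and 36 CpG dinucleotides, Slit3 held 1 and 24, Robo2 held 1 and 18, and Sema6c held 0 and 2. The GC box was in 30 of the 53 promoters (56.6%), against 34.9% of the 27457 promoters of the table. The E-box CACGTG was in 5 (9.43%), against 6.65%, and the TATA box TATAAA (either strand) in 0, against 14.3%. The 53 promoters were also richer in GC, with a median of 64.0% against 52.33%, and in CpG, with a median of 18 against 7. The part of base composition in the motif shares was not tested. The full promoter table also holds genes not listed in any library, and the 53 promoters were not set against those of expressed genes alone. A GC box and an E-box can share an end base, and each motif was counted on its own. A match describes the letters of this window.

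Against vehicle, oxaliplatin was called higher for 2 of 68 guidance genes (2.94%), the receptor Plxnb2 and the ligand Sema6c, and lower for 0, beside 1.76% of all genes called, 1.05% higher and 0.708% lower. At an unadjusted p under 0.05 there were 19 of 68 (27.9%), against 17.2% of all genes, and leaving out single libraries gave 0 to 3 calls (0% to 4.41%), beside 0.307% to 1.52% of all genes. For Plxnb2 the log2 fold change over vehicle was 0.33 ± 0.07, adjusted p = 0.0359, and it missed the threshold without any one of oxaliplatin 1, 2, 3 or 4 or vehicle 1, 2 or 4 (adjusted p 0.0551 to 0.121). For Sema6c it was 0.47 ± 0.09, adjusted p = 0.0216, and 0.0529 to 0.0939 without any one of oxaliplatin 2 or vehicle 2 or 4. The oxaliplatin libraries did not overlap the vehicle libraries for 8 of 68 genes (11.8%), against 11.3% of all genes: Epha2, Ephb2, Ephb4, Plxnb2, Plxnd1, Sema6c and Slit3 were higher, where 5.54% of all genes were, and Robo2 lower, where 5.76% were. Robo2, lower in 4 of 4 oxaliplatin libraries than in any vehicle library, had a log2 fold change of -0.33 ± 0.09, adjusted p = 0.0842. For Ephb2 it was 0.58 ± 0.16, adjusted p = 0.0881, and for Ephb4 0.48 ± 0.14, adjusted p = 0.0902, or 0.0280 without vehicle 3. Epha2 had a log2 fold change of 0.42 ± 0.13 (adjusted p = 0.122), Plxnb1 0.40 ± 0.13 (adjusted p = 0.130), and Plxnb3 0.37 ± 0.12 (adjusted p = 0.147). Ntn1 had 0.86 ± 0.34 (adjusted p = 0.224) and Efnb3, an ephrin-B ligand, 0.70 ± 0.30 (adjusted p = 0.246). Among genes whose log2 CPM averaged 1 or more, the largest differences downward were Epha6 at -0.53 ± 0.23 (adjusted p = 0.260), Efna3 at -0.36 ± 0.17 (adjusted p = 0.289) and Epha7 at -0.36 ± 0.16 (adjusted p = 0.256). These values missed the threshold, and 47 of 68 log2 fold changes were above 0 (69.1%, against 51.7% of all genes), with a median of 0.09 against 0.01. Oxaliplatin was lower than vehicle for 15 of 16 neuronal markers, 2 of them called. It was above vehicle for 11 of 12 endothelial markers (1 called), 12 of 12 pericyte and smooth muscle, 11 of 12 fibroblast and matrix, 11 of 12 Schwann cell and myelin and 7 of 8 B and plasma cell markers (0 called in each), and 8 of 9 adipocyte markers (3 called). For 12 of 13 erythroid markers it was above vehicle, 0 of them called, and the other was called lower, while 10 of 14 macrophage and 9 of 9 neutrophil markers were below vehicle, 0 called. The part of cell makeup in these values was not tested.

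Between paclitaxel and vehicle, 0 of 68 guidance genes were called in edgeR's test, where 0.12% of all genes were called, 0.0822% higher and 0.038% lower. At an unadjusted p under 0.05 there were 14 of 68 (20.6%), against 17.1% of all genes. DESeq2 called 3 (4.41%, beside 1.55% of all genes), limma voom with quality weights 13 (19.1%, beside 12.9%) and limma on log2(FPKM + 1) 0 (beside 0.133%). Libraries did not overlap for 5 of 68 (7.35%), against 6.96% of all genes: Epha10 and Sema6a were higher, where 3.88% of all genes were, and Epha3, Efna4 and Sema4a lower, where 3.08% were. Sema6a (gene ID 361324), a transmembrane semaphorin that binds A plexins, had 33.4, 46.2, 35.4 and 37.8 CPM in the paclitaxel libraries against 25.9, 22.0, 30.9 and 23.5 CPM in the vehicle libraries, a log2 fold change of 0.58 ± 0.12, adjusted p = 0.113. All paclitaxel libraries lay above all vehicle libraries. Epha3 had a log2 fold change of -1.05 ± 0.21 (adjusted p = 0.0910) and Epha10 0.61 ± 0.15 (adjusted p = 0.190).

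Of the other differences from vehicle, Slit1 had 0.41 ± 0.15 (adjusted p = 0.230), Efna1 0.27 ± 0.11 (adjusted p = 0.251), Slit3 -0.40 ± 0.13 (adjusted p = 0.218) and Sema4c -0.34 ± 0.14 (adjusted p = 0.252), as log2 fold changes with SE. Ntn4 had -0.62 ± 0.23 (adjusted p = 0.241), Ntn1 -0.42 ± 0.35 (adjusted p = 0.517) and Efnb3 0.74 ± 0.30 (adjusted p = 0.252). Without paclitaxel 4, edgeR called 8 guidance genes: Epha10, Sema6a, Slit1, Unc5a, Sema4f and Sema7a higher and Epha3 and Sema4c lower, with adjusted p between 0.0201 and 0.0446. They are 11.8% of the 68, beside 10.2% of all genes called in that fit, so the share is near the background. In that fit the log2 fold change of Unc5a was 0.67 and that of Epha3 was -1.13. Paclitaxel library 4 had the highest fibroblast and endothelial marker sums and the lowest neuronal sum of its group. In the group as a whole 16 of 16 neuronal markers were higher and 14 of 14 macrophage markers lower than in vehicle, 0 and 2 of them called, beside 0.12% of all genes. Below vehicle were also 12 of 12 fibroblast and matrix, 11 of 12 endothelial, 10 of 12 pericyte and smooth muscle, 10 of 10 satellite glia, 9 of 9 neutrophil and 13 of 13 erythroid markers, 0 called in each list, and 7 of 8 B and plasma cell markers, 1 of them called. The part of these lists in the values was not tested. In edgeR the log2 fold changes were above 0 for 40 of 68 genes (58.8%, against 47.9% of all genes), with a median of 0.03 against -0.01. With limma on log2(FPKM + 1) they were above 0 for 31, with a median of -0.015 against -0.044 for all genes. Both drugs were set against the same 4 vehicle libraries, so their differences from vehicle share those values.

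Genes that act inside the cell on these cues were also counted. Of 59 tested genes of intracellular guidance signalling, 9 were called between the drugs (15.3%, beside 11.3% of all genes), 3 higher (5.08%, beside 6.6%) and 6 lower (10.2%, beside 4.71%) after oxaliplatin. Against vehicle, 1 was called for oxaliplatin (1.69%, beside 1.76% of all genes) and 0 for paclitaxel (beside 0.12%). Mical3, of the MICAL family of actin-oxidising enzymes that act downstream of plexins, averaged 69.9 ± 7.47 CPM in oxaliplatin against 49.9 ± 5.74 CPM in vehicle libraries (SD, n = 4 each), a log2 fold change of 0.49 ± 0.11, adjusted p = 0.0363 in edgeR. Between the drugs Mical3 had a log2 fold change of 0.49 ± 0.11, adjusted p = 0.0136. Srgap2, a slit and robo GTPase-activating protein, averaged 67.3 ± 2.55 CPM in oxaliplatin against 50.02 ± 4.34 CPM in paclitaxel libraries, a log2 fold change of 0.43 ± 0.09, adjusted p = 0.0104. Dpysl2, a collapsin response mediator that acts downstream of Sema3a in neurons, averaged 652 ± 54.2 CPM in oxaliplatin against 864 ± 59.6 CPM in paclitaxel libraries, a log2 fold change of -0.41 ± 0.09, adjusted p = 0.0136.

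Of 50 tested genes of other guidance cues, receptors and co-receptors, 11 were called between the drugs (22.0%, beside 11.3% of all genes), 6 of 50 higher after oxaliplatin, where 6.6% of all genes were, and 5 of 50 lower, where 4.71% were. Against vehicle, 0 were called for either drug (beside 1.76% of all genes for oxaliplatin and 0.12% for paclitaxel). Ackr3, a scavenging receptor for the chemokine Cxcl12, averaged 32.1 ± 4.59 CPM in oxaliplatin against 14.1 ± 2.87 CPM in paclitaxel libraries, a log2 fold change of 1.19 ± 0.21, adjusted p = 0.00647. Cxcl12 itself averaged 47.3 ± 4.65 CPM in oxaliplatin against 31.02 ± 4.76 CPM in paclitaxel libraries, a log2 fold change of 0.61 ± 0.12, adjusted p = 0.0107, though its reads may be shared with another gene. Rtn4rl1, a Nogo receptor homologue, averaged 92.1 ± 9.59 CPM in oxaliplatin against 126 ± 14.6 CPM in paclitaxel libraries, a log2 fold change of -0.45 ± 0.10, adjusted p = 0.0131.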

How the data were processed

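Frozen rat dorsal root ganglia gave 12 RNA libraries, grouped and numbered by their titles. The authors deposited 1 table per library with an expected count for each gene, fractional where a read fits several genes, and its FPKM, per the file headers. No table lists an FPKM under 0.01, and unlisted genes were set to 0. CASAVA 1.4 and Bowtie2 are named in the submitters' processing notes, while the quantification tool and genome build are not given in the sources used here.

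Expected counts summed to between 17008728 and 17615736 per library, 30.3% to 31.5% of them not whole, and the common dispersion had a square root of 0.159. After rounding, edgeR 4.0.16 (R 4.3.3) was used (default expression filter, TMM normalisation, robust quasi-likelihood fit over 12 libraries, 9 residual degrees of freedom, two-sided tests), and p-values were adjusted by Benjamini-Hochberg over 15809 genes. Calls needed an adjusted p under 0.05. CPM uses the TMM-scaled library totals. Alternatives used DESeq2 1.42.0, limma 3.58.1 (voom with quality weights, and limma-trend on log2 FPKM with a pseudocount of 1 or 0.1), RLE factors, no filter, 2 groups only, a replicate block and leaving out each library.

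The guidance genes and all other lists were chosen with earlier results of these data known. The text names every guidance gene called, the 8 with the smallest p and the 3 with the largest fold change each way (mean log2 CPM of at least 1) in each comparison, the 2 most abundant of each family and the gene that missed the filter. It also names up to 6 called pathway genes per comparison. Other guidance genes, named where libraries did not overlap, where a call appeared without 1 library or for their level, were chosen after their values were seen. Of the 69 gene IDs, 68 were found in the RefSeq gene table of assembly GRCr8, whose promoters are shown. Kdr, Flt1 and Mag are in both a pathway list and a marker list.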

Additional observations from a re-analysis of the deposited data

Results flagged for a closer look

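In 11 of the 114 groups of 4 libraries checked over the 38 named guidance genes, 1 library stood apart from the other 3, with a gap to the nearest of them above Dixon's 95% critical value, as a share of the group's range. For independent, normally spread values the rule would flag about 1 in 20 groups. These groups share the same libraries, and some genes were named for their fold changes, so that rate is no measure of an excess here. The rate over all genes was not computed. Epha1 had 0.343 CPM in vehicle 3, below the 0.402 to 0.409 CPM of the other 3 vehicle libraries. Ephb1 had 20.3 CPM in paclitaxel 3, below the 25.0 to 25.5 CPM of the other 3 paclitaxel libraries. Ephb6 had 83.7 CPM in vehicle 4, above the 64.1 to 67.2 CPM of the other 3 vehicle libraries. These are Eph receptors, and all 3 lone libraries belong to the paclitaxel or vehicle group. Nrp2 had 158 CPM in oxaliplatin 4, above the 116 to 119 CPM of the other 3 oxaliplatin libraries. Ntn3 had 17.4 CPM in oxaliplatin 4, above the 10.3 to 11.4 CPM of the other 3 oxaliplatin libraries. Both lone values are in oxaliplatin 4. Plxnb3 had 77.0 CPM in paclitaxel 4, above the 64.1 to 66.0 CPM of the other 3 paclitaxel libraries. Sema4c had 83.9 CPM in paclitaxel 4, above the 59.8 to 61.9 CPM of the other 3 paclitaxel libraries. Unc5a had 5.81 CPM in paclitaxel 4, below the 11.2 to 12.2 CPM of the other 3 paclitaxel libraries. These 3 lone values are all in paclitaxel 4, and without that library Sema4c and Unc5a were called between paclitaxel and vehicle. Sema3g had 108 CPM in paclitaxel 1, above the 93.5 to 94.5 CPM of the other 3 paclitaxel libraries. Sema7a had 109 CPM in vehicle 2, below the 124 to 126 CPM of the other 3 vehicle libraries. Slit3 had 12.4 CPM in vehicle 2, below the 15.9 to 16.4 CPM of the other 3 vehicle libraries. The Slit3 value was the lowest of the vehicle libraries, and the oxaliplatin libraries lay above all of them.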

How the results depend on the processing

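The 38 differences recomputed, 16 called and 22 not, belong to 24 guidance genes: of 272 values for the calls under the alternatives run, 191 stayed past the threshold, 81 missed it and 0 reversed, and of 374 values for the others, 30 passed it and 0 reversed. Epha2, Epha3, Plxnb2, Plxnb3 and Slit3 were called between the drugs under all 17 alternatives, Sema4g under 16, Sema4c under 14, Ephb4 and Robo2 under 10, Ntn1 and Unc5d under 8, Plxnc1 under 7, Epha10 under 6 and Sema6c under 5. Against vehicle, oxaliplatin kept Sema6c under 14 of 17 and Plxnb2 under 8. The count of guidance genes between the drugs was 28 with limma voom (41.2%, beside 30% of all genes) and 20 with DESeq2 (29.4%, beside 17.6%). It was 23 without paclitaxel 4 and oxaliplatin 4 together (33.8%, beside 27.5%), a setting chosen after seeing the data. When single libraries were left out it was 5 to 19 (7.35% to 27.9%, beside 3.59% to 21.7%). Between oxaliplatin and vehicle the count was 5 with DESeq2 (7.35%, beside 5.52% of all genes) and 4 with voom (5.88%, beside 3.73%). It was 1 with 2 groups only (1.47%, beside 1.03%) and 0 to 3 without single libraries (0% to 4.41%, beside 0.307% to 1.52%). Between paclitaxel and vehicle the count was 3 with DESeq2 (4.41%, beside 1.55% of all genes) and 13 with voom (19.1%, beside 12.9%). It was 10 without those 2 libraries (14.7%, beside 14.5%) and 0 to 8 without single libraries. The 8 were without paclitaxel 4 (11.8%, beside 10.2%). The cause was not tested.

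Over all genes, oxaliplatin against paclitaxel gave 1788 calls, against 2779 with DESeq2, 4744 with voom, 1016 with 2 groups only, 4377 without those 2 libraries and 571 to 3463 without single libraries. On log2(FPKM + 1), 1507 of 1784 calls were higher, against 1044 of 1788. For oxaliplatin against vehicle, 278 calls became 873 with DESeq2, 589 with voom, 161 with 2 groups only and 49 to 242 without single libraries. On log2(FPKM + 1), 256 of 330 were higher, against 166 of 278. For paclitaxel against vehicle, 19 calls became 245 with DESeq2, 2044 with voom, 2310.0 without those 2 libraries and 10 to 1631 without single libraries. DESeq2 gave 121 of 245 as higher and limma on log2(FPKM + 1) 12 of 21, against 13 of 19.

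The replicate numbers showed no sign of pairing the libraries. Correlations of same-numbered libraries were -0.232 to 0.157, and 2 of 12 libraries were most like one of their own number. With 4 libraries per group, these values cannot exclude pairing. With the replicate block, 9 guidance genes (13.2%) and 986 of all genes (6.24%) were called between the drugs. Between oxaliplatin and vehicle they were 1 (1.47%) and 72 (0.455%), and between paclitaxel and vehicle 0 and 15 (0.0949%). With 4 libraries per group, differences smaller than the spread of these libraries were not detectable, and Epha1 was too low to test.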
